A study of Mus musculus with 6 samples.

Results

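The genes described here carry out the interferon response, antigen presentation and cytokine signalling. They were taken by gene symbol from a list of 46 names, of which 45 had a row among the 23361 symbols of the expression table, and Ifi27 was not analysed here. The 45 genes fall into 23 interferon-induced and antigen presentation genes and 22 genes of cytokines, chemokines, their receptors and downstream effectors, and the 2 sets are reported apart. Expression was measured by RNA sequencing of whole hippocampus from mice homozygous for the Tet1Δe4 allele (Tet1Δe4-/-, called Tet1-deficient) and from wild-type mice (Tet1+/+), with 3 libraries of each genotype. The Tet1 protein is an enzyme of DNA demethylation, which acts on methylated cytosines. All mice of both genotypes had received electroconvulsive shock, a current across the ears that evokes a seizure, and the tissue was taken 1.5 to 2 hours later. No library from an unshocked mouse was analysed here, so the levels below are levels after a seizure and no induction by it was measured. The sources used here give neither age nor strain, and nothing beyond the count of mice in the design text says how separate the samples of a genotype were, so p-values measure the spread between these libraries.

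Type I interferons bind the receptor Ifnar1 and Ifnar2 and, through the kinases Jak1 and Tyk2, activate Stat2. Together with Irf9 it acts in a complex that binds interferon-stimulated response elements and turns on antiviral genes, among them the Ifit, Oas, Mx and Isg15 genes, as well as the immunoproteasome and peptide transporter that load class I antigen. Cytokines such as Il1b and Tnf and the Toll-like receptors act through NF-kappa B and raise chemokines, adhesion molecules and acute-phase proteins. In brain these genes are expressed chiefly by microglia, astrocytes and vessel cells, and seizures are known to raise several of the cytokines and chemokines.

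Values are FPKM, fragment counts scaled to transcript length and library size, as the authors deposited them, and the read depth of the libraries is unknown. Replicate numbers are names that pair no libraries, and values of 3 libraries are always given in the order of replicates 1, 2 and 3. The libraries correlated between 0.965 and 0.990 across genes on the log2 scale. The first principal component, with 53.3% of the variance, set replicate 1 of each genotype apart from the other 4 libraries. Markers of the labelled tissue were present in every library, with Snap25, a synaptic vesicle fusion gene of neurons, at 1114 to 1386 FPKM and Prox1, of dentate granule cells, at 21.1 to 42.7 FPKM. The targeted gene Tet1 measured 0.977, 0.718 and 0.897 FPKM in the wild-type libraries, against 0.740, 0.685 and 0.638 FPKM in the Tet1-deficient ones. The 2 genotypes overlapped, and a value over the whole gene does not check an allele that may remove only part of it. The summed FPKM of 20 microglia markers was even across libraries, from 272 to 287 in wild-type and from 262 to 286 in Tet1-deficient hippocampus, and none of them was listed at 0 in any library. Other cell types were less even. The sum of 16 blood leukocyte markers was 6.68, 0.576 and 45.9 FPKM with wild-type Tet1, and its Tet1-deficient values were 4.42, 2.90 and 1.69 FPKM, and 12 of these markers were listed at 0 in at least 1 library. The sum of 10 choroid plexus markers was 18.9, 9.96 and 306 FPKM among wild-type libraries, while Tet1-deficient libraries gave 24.8, 201 and 11.3 FPKM. The sum of 12 meningeal fibroblast markers was 127, 48.4 and 129 FPKM and 59.9, 74.9 and 47.0 FPKM, in the same order.

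Most of the 45 genes were scarce in both genotypes. Of these, 33 had a mean under 1 FPKM over the 6 libraries (73.3%), against 34.5% of the 19123 genes above 0 in at least 1 library. Another 10 had means between 1 and 10 FPKM, and 2 lay above 10, the class I light chain gene B2m and the serine protease inhibitor gene Serpina3n. 8 genes were listed at 0 in at least 1 library, 7 of them cytokines and chemokines.

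No gene of either set passed the test for a difference between genotypes. The test was limma's two-sided moderated test on log2(FPKM + 1) adjusted by Benjamini-Hochberg at a threshold of 0.05, fitted to 12533 genes whose mean reached 1 FPKM. There 0 of 8 interferon and antigen presentation genes and 0 of 4 cytokine set genes were called, against 0.0319% of all genes tested, and 0 of these 12 had an unadjusted p under 0.05, against 1.36% of all. Because that filter leaves out most of the set, the same model was also fitted to all 19123 genes above 0. In it 0 of 45 were called, against 0.0209% of all, and 1 had an unadjusted p under 0.05, against 2.84% of all. For that gene, Psmb9, and no other of the 45, the values of the 2 genotypes did not overlap (2.22%, against 5.82% of all genes above 0, of which 3.70% were lower and 2.12% higher in Tet1-deficient hippocampus). In whole tissue, fewer cells of a type and less RNA per cell cannot be told apart.

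**Figure D1:**
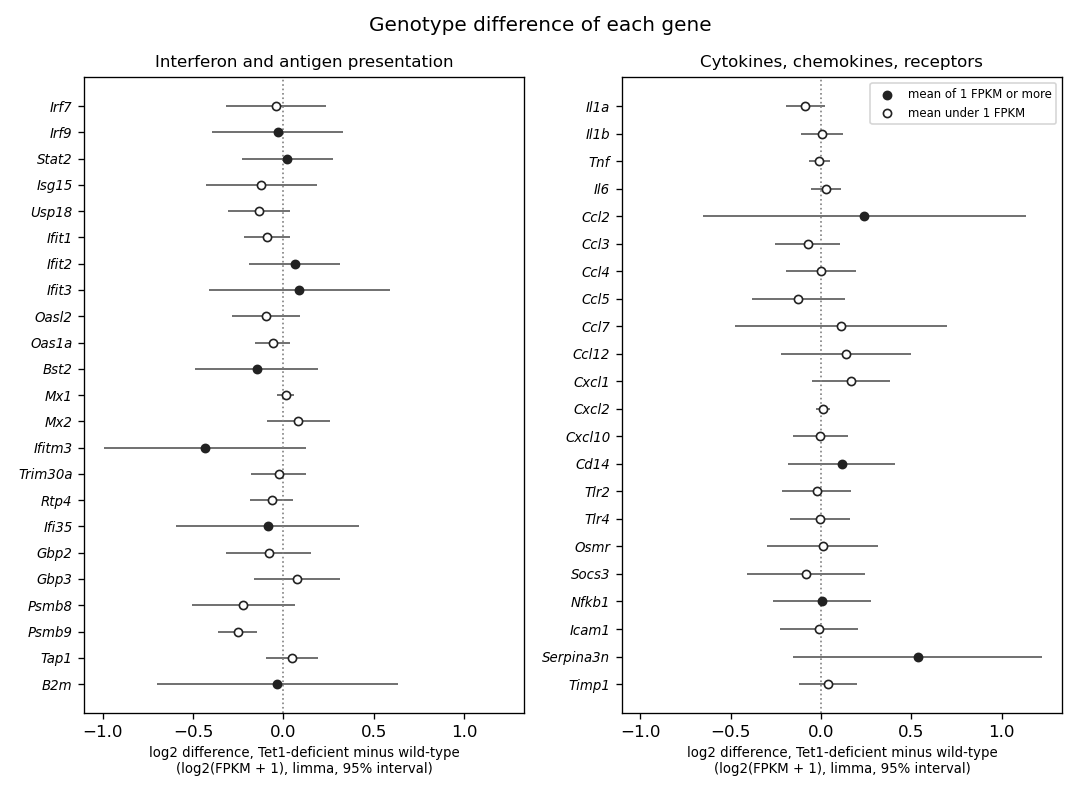
Log2 difference of each gene on the log2(FPKM + 1) scale, Tet1-deficient minus wild-type, with limma's 95% interval from the fit to all genes above 0 (n = 3 libraries each), filled for the 12 genes whose mean reached 1 FPKM and open for the 33 below it. The interval leaves out 0 for Psmb9 and for no other gene, and the intervals are short for the scarcest genes because the added 1 FPKM compresses their differences.

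Among the transcription factors of the interferon response, Stat2 was the most abundant. It measured 5.58, 6.89 and 6.48 FPKM in the wild-type libraries, against 6.24, 6.35 and 6.63 FPKM in the Tet1-deficient ones. The Tet1-deficient values all lay inside the wild-type range, and the log2 difference was 0.02 (95% interval −0.21 to 0.26). Irf9, the DNA-binding partner of Stat2, ranged from 1.77 to 2.91 FPKM among wild-type libraries, and from 1.94 to 2.45 FPKM in Tet1-deficient libraries. Irf7, which amplifies the response and is itself induced by it, was scarce, at 0.361 to 0.465 FPKM among wild-type libraries, and 0.198 to 0.637 FPKM in Tet1-deficient libraries. Its wild-type values lay inside the Tet1-deficient range.

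Isg15, a ubiquitin-like protein attached to other proteins during the response, measured 0.695, 0.777 and 1.15 FPKM with wild-type Tet1, and its Tet1-deficient values were 0.487, 0.918 and 0.759 FPKM. Usp18, the protease that removes it and a brake on interferon receptor signalling, measured 0.192, 0.299 and 0.111 FPKM among wild-type libraries, while Tet1-deficient libraries gave 0.0146, 0.111 and 0.152 FPKM. Both genes were lowest in Tet1-deficient replicate 1, and both overlapped between genotypes. The log2 difference was −0.12 (95% interval −0.43 to 0.19) for Isg15 and −0.14 (−0.31 to 0.04) for Usp18 in the fit to all genes above 0.

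The Ifit genes, whose proteins bind viral RNA, lie together on chromosome 19. Ifit1 measured 0.250, 0.143 and 0.318 FPKM in the wild-type libraries, against 0.175, 0.155 and 0.150 FPKM in the Tet1-deficient ones, a log2 difference of −0.09 (95% interval −0.22 to 0.04). The wild-type libraries spread widely and the Tet1-deficient libraries lay close together within that spread. Ifit2 ranged from 1.42 to 1.94 FPKM and from 1.61 to 1.91 FPKM in the 2 genotypes. Ifit3 ranged from 0.715 to 1.97 FPKM among wild-type libraries, and from 1.23 to 1.70 FPKM in Tet1-deficient libraries, so again the wild-type values were the wider. Over 80% or more of the transcript, Ifit3 has 95% or higher identity with its neighbour Ifit3b, and Oas1a with Oas1g, so the values of both genes are uncertain.

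The stretches of promoter that hold the interferon response element are shown for Isg15, Ifit1, Ifit3 and B2m. The element was searched on both strands as GAAA, any 2 bases and GAAA. These 4 genes were picked among those with a match, and their means run from 0.198 FPKM (Ifit1) to 65.3 FPKM (B2m). Scarcer genes such as Oas1a, which has 2 matches, are not shown. The stretches are taken from RefSeq on GRCm38.p6, which has a promoter window for 34 of the 45 genes, and they are read 5′ to 3′ on the gene's strand. Capitals mark the element, which appears as TTTC, 2 bases and TTTC where it lies on the other strand, and in B2m also an adjoining NF-kappa B motif.
Isg15, chr4:156200860-156200911, minus strand: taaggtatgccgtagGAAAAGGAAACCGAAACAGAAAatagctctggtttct
Ifit1, chr19:34640770-34640828, plus strand: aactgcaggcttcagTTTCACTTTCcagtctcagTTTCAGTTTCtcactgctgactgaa
Ifit3, chr19:34583358-34583431, plus strand: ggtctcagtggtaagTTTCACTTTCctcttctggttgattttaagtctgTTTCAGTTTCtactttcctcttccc
B2m, chr2:122147533-122147585, plus strand: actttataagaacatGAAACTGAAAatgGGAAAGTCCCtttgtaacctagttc
Isg15 holds 3 overlapping copies, Ifit1 and Ifit3 hold 2 each with the same letters, and B2m holds 1. In the 250 bases before a RefSeq start, the element was found for 10 of 19 interferon and antigen presentation genes with a window, for 1 of 15 cytokine set genes, and for 3.46% of all 27025 symbols. A match is a description of the letters and does not show that a factor was bound.

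Among the other antiviral effectors, Ifitm3, which blocks the entry of viruses and is strong in vessel cells, was the most abundant. It measured 7.38, 5.19 and 9.97 FPKM with wild-type Tet1, and its Tet1-deficient values were 5.16, 6.13 and 4.26 FPKM, with means of 7.51 ± 2.39 and 5.19 ± 0.934 FPKM (SD, n = 3). Wild-type replicate 2 lay among the Tet1-deficient values, and the log2 difference of −0.43 had a 95% interval from −0.95 to 0.09 (limma adjusted p 1.00). It was highest in wild-type replicate 3, and without that library the log2 difference was −0.23. The summed FPKM of 16 endothelial markers was 150, 119 and 166 for wild-type and 117, 162 and 100 for Tet1-deficient libraries, so it too was highest in wild-type replicate 3. All 16 markers had a lower estimate in Tet1-deficient hippocampus, 0 of them had values that did not overlap, and none was listed at 0, with a median log2 difference of −0.23. The 12 meningeal fibroblast markers given above were lower in 12 of 12 estimates, with a median of −0.59. Their sum was also highest in wild-type replicate 3, at 129 FPKM, but nearly as high in wild-type replicate 1, at 127 FPKM. 1 of the 12 had values that did not overlap, against 4.13% of all 12533 genes tested. Of 10 markers of mural cells, the contractile cells of vessel walls, 9 were tested and 7 of these were lower, with a median of −0.27. Their sum was 72.3, 46.9 and 80.5 FPKM for wild-type and 45.9, 60.5 and 42.1 FPKM for Tet1-deficient libraries. The part of vessel and meningeal cells in the Ifitm3 difference was not tested.

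Bst2, which tethers budding viruses, measured 2.14, 2.29 and 3.17 FPKM among wild-type libraries, while Tet1-deficient libraries gave 2.1, 2.44 and 1.96 FPKM. Rtp4, a Golgi chaperone induced by interferon, measured 0.420, 0.365 and 0.508 FPKM and 0.316, 0.381 and 0.403 FPKM, in the same order. Ifi35 ranged from 0.848 to 1.83 FPKM and from 0.703 to 1.51 FPKM. All 3 overlapped between genotypes, and all 3 were highest in wild-type replicate 3.

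The 2-5 oligoadenylate synthetase family senses double-stranded RNA. Oasl2 measured 0.457, 0.365 and 0.497 FPKM in the wild-type libraries, against 0.239, 0.503 and 0.310 FPKM in the Tet1-deficient ones. Oas1a was near the floor, at 0.0636, 0.104 and 0.0771 FPKM among wild-type libraries, and 0.0132 and 0.103 FPKM in Tet1-deficient replicates 1 and 2, and it was listed at 0 in Tet1-deficient replicate 3. Mx2, a dynamin-like antiviral gene that the annotation calls a polymorphic pseudogene, measured 0.155, 0.249 and 0.223 FPKM and 0.147, 0.341 and 0.361 FPKM. It was one of 7 genes in the set whose difference was positive (log2 difference 0.08, 95% interval −0.09 to 0.26). Mx1 reached at most 0.0472 FPKM, and Trim30a lay between 0.208 and 0.393 FPKM.

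The guanylate-binding proteins, GTPases that respond mainly to interferon gamma, were also scarce. Gbp2 measured 0.705, 0.400 and 0.707 FPKM with wild-type Tet1, and its Tet1-deficient values were 0.455, 0.642 and 0.437 FPKM. Gbp3 ranged from 0.524 to 0.769 FPKM and from 0.550 to 0.874 FPKM. Both overlapped between genotypes, and their differences had opposite signs (−0.08 and 0.07 on the log2 scale).

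**Figure D2:**
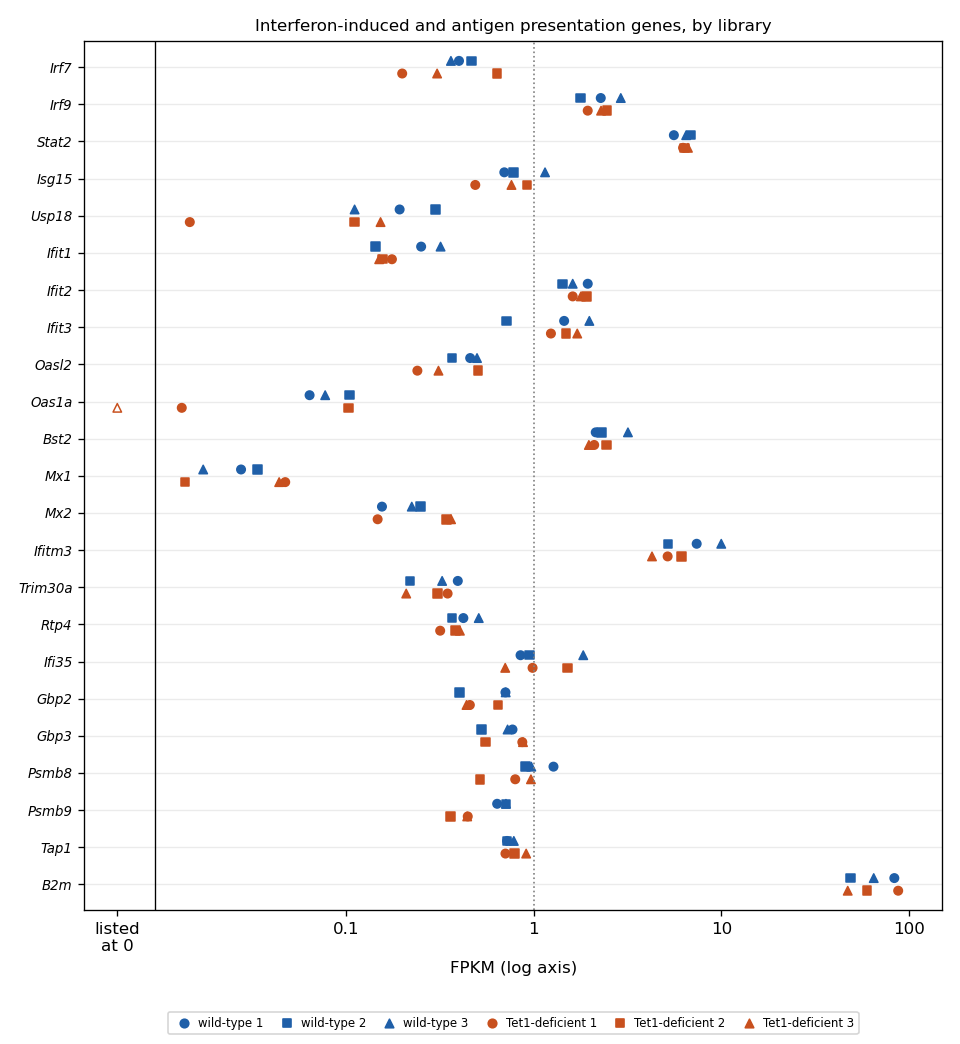
FPKM of the 23 interferon-induced and antigen presentation genes in each library, on a log axis, with open symbols where a gene was listed at 0 a dotted line at 1 FPKM, and blue for the 3 wild-type and orange for the 3 Tet1-deficient libraries. Symbols of the 2 colours interleave for 22 genes and separate for Psmb9, and B2m stands alone at 47.1 to 87.6 FPKM.

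Antigen presentation gave the lowest unadjusted p of the 45 genes. Psmb9, which encodes a catalytic subunit that replaces its constitutive counterpart in the immunoproteasome, measured 0.637, 0.708 and 0.709 FPKM among wild-type libraries, while Tet1-deficient libraries gave 0.444, 0.359 and 0.441 FPKM. Every Tet1-deficient library lay below every wild-type library, and the means were 0.685 ± 0.0416 and 0.414 ± 0.0482 FPKM (SD, n = 3), a ratio of 0.605. The log2 difference was −0.25 (SE 0.0445; limma p 0.00111 before and 0.600 after adjustment), so it did not pass over all genes. The two-sided exact permutation p was 0.1, the smallest that 3 libraries against 3 allow. Psmb9 was under 1 FPKM in all 6 libraries, and values did not overlap for 9.04% of genes above 0 with a mean under 1 FPKM, against 4.13% of more abundant genes. In the fits without the level filter, leaving out any 1 library kept its log2 difference between −0.27 and −0.22. The smallest adjusted limma p among the unfiltered alternatives was 0.0897, with estimated library weights. The adjusted limma p was 0.603 without wild-type replicate 1 and 0.995 without Tet1-deficient replicate 1. The added 1 FPKM compresses the difference. With a pseudocount of 0.1 FPKM the log2 difference was −0.61 (limma p 0.00662 before and 0.99998 after adjustment).

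Psmb9 lies at 34181987 to 34187764 on the minus strand of chromosome 17 (mm10), in the class II part of the major histocompatibility complex, beside 2 other genes of the set. Tap1, the peptide transporter subunit that faces it from the plus strand at 34187553 to 34197225, measured 0.719, 0.717 and 0.781 FPKM in the wild-type libraries, against 0.705, 0.787 and 0.909 FPKM in the Tet1-deficient ones. It was described after its values were seen, and it overlapped between genotypes, with a log2 difference of 0.05 (95% interval −0.10 to 0.19) and thus the opposite sign to Psmb9. The RefSeq starts of Psmb9 and Tap1 are divergent and enclose 225 bases with 12 CpG dinucleotides. These bases hold no match to the interferon response element as it was searched here. That search allowed no mismatch, so an element with other letters would be missed. GENCODE also has a longer Psmb9 transcript that overlaps the first exon of Tap1, and the sources used here do not give the strand setting of the authors' counting, so reads there cannot be assigned to 1 gene with certainty. Psmb8, a second immunoproteasome subunit downstream of Tap1, measured 1.27, 0.902 and 0.968 FPKM with wild-type Tet1, and its Tet1-deficient values were 0.795, 0.516 and 0.964 FPKM. Tet1-deficient replicate 3 lay among the wild-type values, and the log2 difference was −0.22 (95% interval −0.51 to 0.06).

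B2m, the light chain of every class I molecule, measured 83.5, 48.9 and 64.9 FPKM among wild-type libraries, while Tet1-deficient libraries gave 87.6, 59.7 and 47.1 FPKM. It was highest in replicate 1 of both genotypes, the libraries that the first principal component set apart. The log2 difference was −0.03, with a 95% interval of −0.67 to 0.60, so its spread between libraries was far wider than its genotype difference.

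The wider antigen presentation pathway was read from 24 further genes, of which 17 were tested. 0 passed in either direction, 7 were higher and 10 lower, and their median log2 difference was −0.03, against 0.0055 over all tested genes. In the fit to all genes above 0, 7 of the 24 were higher and 17 lower, and 0 passed. H2-K1, a class I heavy chain on the same chromosome, measured 8.64, 9.76 and 11.0 FPKM in the wild-type libraries, against 6.48, 8.43 and 7.77 FPKM in the Tet1-deficient ones. The H2-K1 values did not overlap, and the log2 difference was −0.34 (95% interval −0.64 to −0.03; limma p 0.0344 before and 1.00 after adjustment). Psmb10, the remaining immunoproteasome subunit, overlapped between genotypes at 9.92, 13.3 and 13.8 FPKM and 10.4, 12.9 and 12.8 FPKM.

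**Figure D3:**
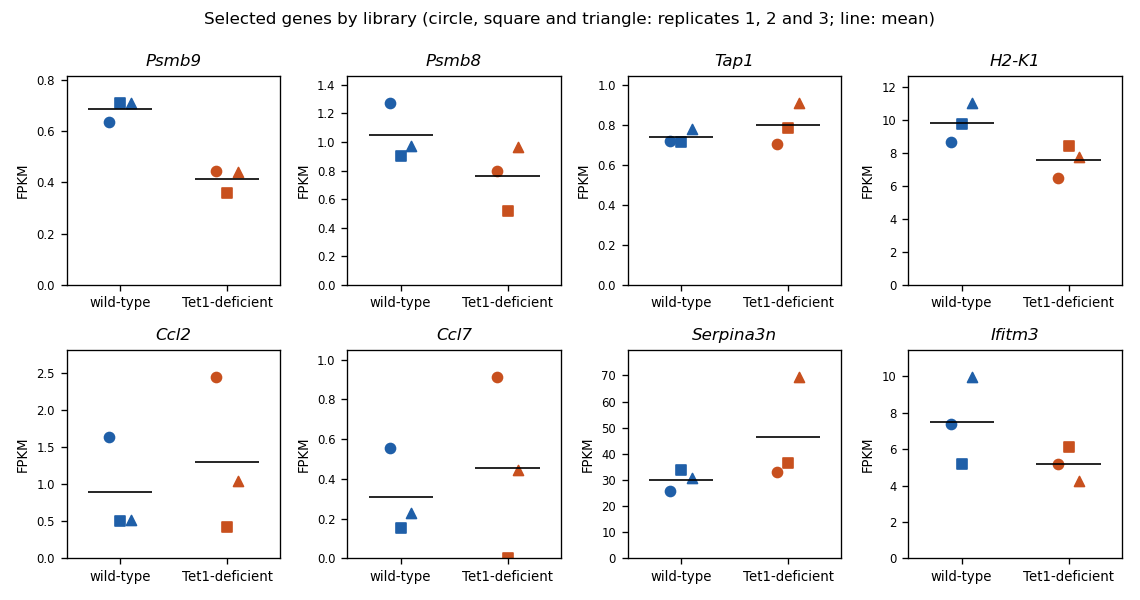
FPKM of 8 genes in each library, with each axis starting at 0 and a line at the mean of 3 libraries. Psmb9 and H2-K1 separate by genotype, Psmb8, Tap1 and Ifitm3 overlap, Ccl2 and Ccl7 are highest in replicate 1 of each genotype, and Serpina3n is highest in Tet1-deficient replicate 3.

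Over the whole interferon and antigen presentation set, 16 of 23 genes had a lower and 7 a higher estimate in Tet1-deficient hippocampus, with a median log2 difference of −0.06, while 48.9% of all genes above 0 were higher. That median was −0.13 without wild-type replicate 2, −0.02 without wild-type replicate 3, −0.04 without Tet1-deficient replicate 1, −0.03 without Tet1-deficient replicate 3 and −0.18 with a pseudocount of 0.1 FPKM. 1 of the 16, Psmb9, had an unadjusted p under 0.05. Over the 8 tested genes the median was −0.03. Without wild-type replicate 3 it was 0.04, over the 7 genes that still passed the filter. That library was the highest of the 6 for 10 of the 23 genes, and it was highest for 22.3% of the 9919 genes under 10 FPKM that were above 0 in every library. In the same library S100a8 and S100a9, neutrophil genes, stood at 20.1 and 22.7 FPKM, against at most 2.85 and 2.48 FPKM in the others, and both were listed at 0 in wild-type replicate 2. The sum of 8 border macrophage markers was also highest there, at 9.92 FPKM against 4.13 to 8.44 FPKM in the others, with 8 of 8 markers lower in their Tet1-deficient estimate and none listed at 0. The part of blood and border cells in the interferon gene levels was not tested. Tet1-deficient replicate 1 was the lowest for 7 of the 22 genes above 0 in all libraries, against 26.4% of those 9919 genes.

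The upstream pathway gave no call. Of 23 genes of interferon receptors, kinases and sensors, 16 were tested, 0 passed, and 8 were higher and 8 lower, with a median log2 difference of −0.0046, and in the fit to all genes above 0, 11 were higher and 12 lower. Ifnar1 measured 6.57 ± 0.663 FPKM in wild-type hippocampus, against 6.32 ± 0.714 FPKM in Tet1-deficient hippocampus (SD, n = 3). Jak2, a kinase of the interferon gamma and cytokine receptors, measured 8.60, 8.09 and 8.23 FPKM with wild-type Tet1, and its Tet1-deficient values were 10.5, 8.75 and 8.71 FPKM. Its values did not overlap (log2 difference 0.14, limma adjusted p 1.00). Of the 23 genes, 1 was higher and 1 lower without overlap, against 5.82% of all genes above 0. The lower one, the scarce sensor gene Mb21d1, measured 0.294, 0.357 and 0.248 FPKM with wild-type Tet1, and 0.247, 0.243 and 0.215 FPKM without. Its log2 difference in the fit to all genes above 0 was −0.07 (unadjusted limma p 0.0975). Among 42 further interferon-induced genes 13 were tested, 0 passed, and 3 were higher and 10 lower, with a median of −0.07. In the fit to all genes above 0, 10 of the 42 were higher and 32 lower, and 0 passed. 6 of the 42 had values that did not overlap, 5 of them lower and 1 higher. Values did not overlap for 5.82% of all genes above 0, and for 9.04% of those with a mean under 1 FPKM. Of the 42 genes, 29 had such a low mean. Gbp4, a scarce guanylate-binding protein gene, measured 0.110, 0.0809 and 0.17 FPKM in the wild-type libraries, against 0.0208, 0.0320 and 0.0251 FPKM in the Tet1-deficient ones (log2 difference −0.13; limma p 0.00643 before and 1.00 after adjustment). The added 1 FPKM compresses that difference, and with a pseudocount of 0.1 FPKM it was −0.79 (limma p 0.00272 before and 0.731 after adjustment). Gbp9, a relative of Gbp4, measured 0.382, 0.303 and 0.431 FPKM among wild-type libraries, while Tet1-deficient libraries gave 0.265, 0.259 and 0.217 FPKM (log2 difference −0.14; limma p 0.0169 before and 1.00 after adjustment). Neither gene overlapped between genotypes. Ifitm2, a neighbour and relative of Ifitm3, measured 9.37, 8.06 and 11.1 FPKM and 6.48, 8.47 and 8.24 FPKM, and like Ifitm3 it was highest in wild-type replicate 3.

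The cytokine genes themselves were close to the floor. Il1a, an interleukin released by damaged and activated cells, measured 0.260, 0.148 and 0.134 FPKM among wild-type libraries, while Tet1-deficient libraries gave 0.0925, 0.137 and 0.103 FPKM. Only its highest Tet1-deficient value reached into the wild-type range, and the log2 difference was −0.09 (95% interval −0.19 to 0.02). Il1b, its inducible relative, lay between 0.0329 and 0.147 FPKM in the 6 libraries. Tnf reached at most 0.0491 FPKM and was listed at 0 in Tet1-deficient replicates 1 and 3. Il6 measured 0.0361 and 0.0338 FPKM in wild-type replicates 1 and 2 and 0.0863 and 0.0422 FPKM in Tet1-deficient replicates 1 and 3, and it was listed at 0 in the other 2 libraries. No genotype difference in Tnf or Il6 could be read at such levels.

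The chemokines that attract monocytes varied widely between libraries. Ccl2 measured 1.64, 0.506 and 0.523 FPKM in the wild-type libraries, against 2.45, 0.418 and 1.04 FPKM in the Tet1-deficient ones, so its highest value was 5.85 times its lowest. Replicate 1 was the highest library within each genotype. Between these 2 libraries the Tet1-deficient value was the higher, and among the other 4 the Tet1-deficient libraries held both the lowest and the highest value. The log2 difference was 0.24, with a 95% interval from −0.61 to 1.09 (limma adjusted p 1.00), and without wild-type replicate 2 or 3 it was 0.10 or 0.11. Without Tet1-deficient replicate 2 it was 0.54, and without either replicate 1 the mean of Ccl2 fell under the filter.

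Ccl7, next to Ccl2 on chromosome 11 and named here after its values were seen, had the same order within genotypes, at 0.554, 0.154 and 0.227 FPKM among wild-type libraries, and 0.914 and 0.446 FPKM in Tet1-deficient replicates 1 and 3, and it was listed at 0 in Tet1-deficient replicate 2. Ccl12, also in that chemokine cluster, measured 0.637, 0.578 and 0.354 FPKM and 0.838, 0.341 and 0.891 FPKM. It was lowest in Tet1-deficient replicate 2, as Ccl2 was, but highest in Tet1-deficient replicate 3. All 3 genes overlapped between genotypes.

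Ccl3 and Ccl5, which act on receptors of T cells and macrophages, were near the floor. Ccl3 measured 0.171, 0.0521 and 0.192 FPKM among wild-type libraries, and 0.185 and 0.0648 FPKM in Tet1-deficient replicates 2 and 3, and it was listed at 0 in Tet1-deficient replicate 1. Ccl5 measured 0.343 and 0.144 FPKM in wild-type replicates 1 and 3 and 0.115 and 0.0604 FPKM in Tet1-deficient replicates 2 and 3, and was listed at 0 in the others. Ccl4 lay between 0.0423 and 0.259 FPKM. These 3 genes overlapped between genotypes.

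The neutrophil chemokine Cxcl1 measured 0.253, 0.363 and 0.119 FPKM with wild-type Tet1, and its Tet1-deficient values were 0.515, 0.286 and 0.378 FPKM. Wild-type replicate 2 lay among the Tet1-deficient values, and the log2 difference was 0.16 (95% interval −0.05 to 0.38). Cxcl1 is shown with its promoter as the chemokine with the smallest p, with the NF-kappa B motif in capitals, in a form that reads as the motif on both strands (RefSeq, GRCm38.p6).
Cxcl1, chr5:90891159-90891199, plus strand: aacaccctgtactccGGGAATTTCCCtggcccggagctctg
The NF-kappa B motif was found in the 250 bases before the start for 5 of 15 cytokine set genes with a window, for 2 of 19 interferon and antigen presentation genes, and for 4.46% of all symbols. Cxcl2, a close relative of Cxcl1, was listed at 0 in 5 libraries and at 0.0212 FPKM in Tet1-deficient replicate 3. Cxcl10, the interferon-induced chemokine that ties both sets together, stayed at or under 0.173 FPKM and was listed at 0 in wild-type replicate 2.

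**Figure D4:**
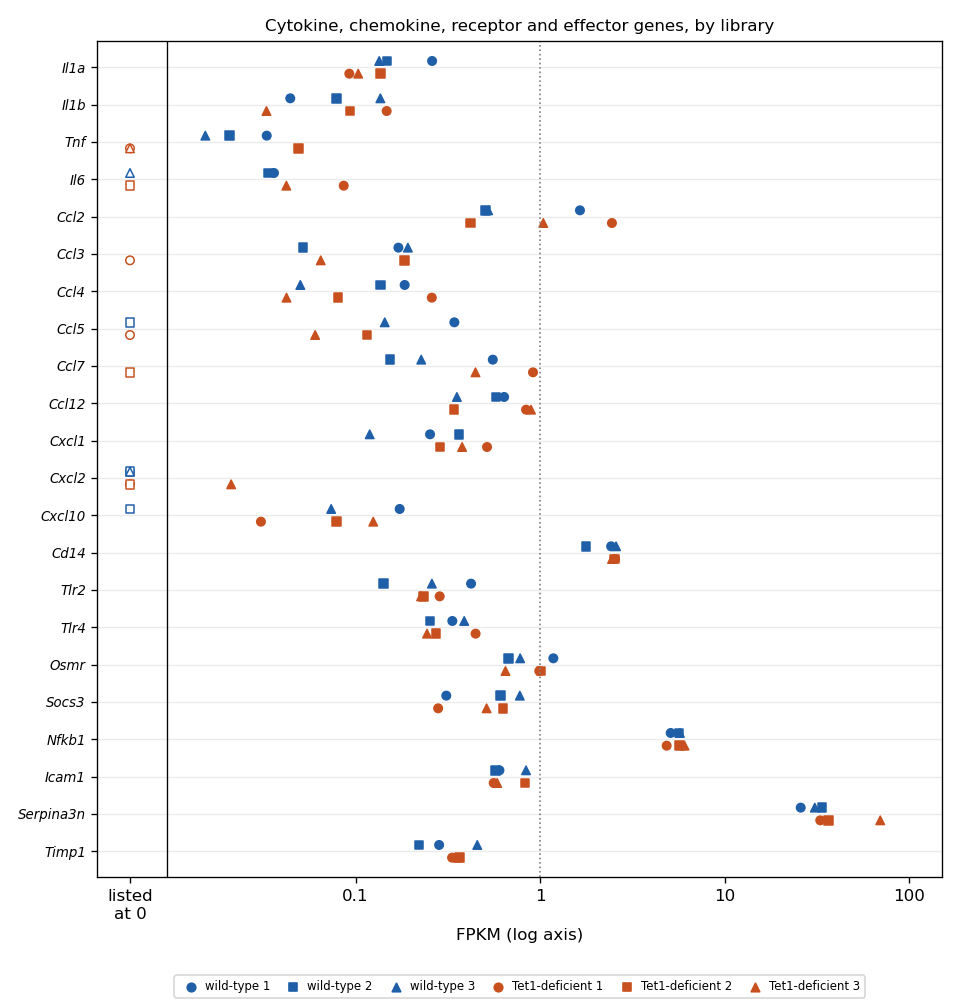
FPKM of the 22 cytokine, chemokine, receptor and effector genes in each library, on a log axis, with open symbols where a gene was listed at 0 a dotted line at 1 FPKM, and blue for wild-type and orange for Tet1-deficient libraries. The colours interleave for all 22 genes, and Serpina3n stands alone at 25.8 to 69.4 FPKM.

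Among receptors of the innate response only Cd14 passed the level filter. Cd14, the lipopolysaccharide co-receptor of myeloid cells, measured 2.42, 1.77 and 2.58 FPKM among wild-type libraries, while Tet1-deficient libraries gave 2.54, 2.53 and 2.45 FPKM. The Tet1-deficient libraries lay close together within the wild-type range (log2 difference 0.12, 95% interval −0.16 to 0.39), and the difference was 0.0042 without wild-type replicate 2 and 0.19 without wild-type replicate 3. The Toll-like receptor genes Tlr2 and Tlr4 ranged from 0.142 to 0.422 FPKM and from 0.244 to 0.447 FPKM over the 6 libraries. Osmr, the oncostatin M receptor, lay between 0.671 and 1.18 FPKM in wild-type and between 0.648 and 1.01 FPKM in Tet1-deficient libraries.

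Of the signalling genes, Nfkb1, a subunit of NF-kappa B, had the smallest ratio of highest to lowest library in the set, 1.25. It measured 5.09, 5.65 and 5.71 FPKM in the wild-type libraries, against 4.84, 5.69 and 6.05 FPKM in the Tet1-deficient ones, and the log2 difference was 0.0069 (95% interval −0.24 to 0.26). Socs3, the feedback inhibitor that Stat3 induces, measured 0.310, 0.610 and 0.776 FPKM and 0.280, 0.627 and 0.513 FPKM. Both genes were lowest in replicate 1 of each genotype, the reverse of Ccl2.

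Among adhesion and secreted proteins, Serpina3n, an acute-phase protease inhibitor made by reactive astrocytes, had the largest estimated difference of all 45 genes on the log2(FPKM + 1) scale. It measured 25.8, 33.6 and 30.7 FPKM with wild-type Tet1, and its Tet1-deficient values were 32.9, 36.4 and 69.4 FPKM. Tet1-deficient replicate 3 held the highest value, and replicate 1 lay among the wild-type values. The log2 difference was 0.53 (95% interval −0.12 to 1.19; limma p 0.0950 before and 1.00 after adjustment), and the two-sided exact permutation p was 0.2. Without Tet1-deficient replicate 3 the difference was 0.21, and with estimated library weights it was 0.95 (limma adjusted p 0.161). The astrocyte filament gene Gfap, which rises with Serpina3n in reactive astrocytes, was 150 FPKM in Tet1-deficient replicate 3 and 145 to 168 FPKM over all 6 libraries. The part of reactive astrocytes in the Serpina3n values was not tested. Icam1, a leukocyte adhesion molecule of vessels, ranged from 0.572 to 0.838 FPKM and from 0.560 to 0.825 FPKM. Timp1, a secreted inhibitor of metalloproteinases, measured 0.283, 0.221 and 0.456 FPKM among wild-type libraries, while Tet1-deficient libraries gave 0.333, 0.366 and 0.358 FPKM, all within the wild-type range.

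Over the cytokine set, 13 of 22 genes had a higher and 9 a lower estimate in Tet1-deficient hippocampus, and the median log2 difference was 0.0064. Its sign turned without wild-type replicate 2 (−0.0051) and without Tet1-deficient replicate 1 (−0.00074). It was 0.03 without wild-type replicate 1, 0.02 without wild-type replicate 3 and 0.04 without Tet1-deficient replicate 3, so this median has no stable direction. All 4 tested genes, Ccl2, Cd14, Nfkb1 and Serpina3n, had a positive estimate, with a median of 0.18 that rests on so few genes. Among genes above 0 in every library, the highest value was a median of 2.70 times the lowest for 15 cytokine set genes and 2.04 times for 22 interferon and antigen presentation genes. The median was 1.47 times for all 16482 such genes and 2.42 times for the 3981 of them with a mean under 1 FPKM. Both sets hold genes on either side of 1 FPKM, so neither figure is a matched comparison.

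The further genes of these pathways also gave no call. Of 33 cytokine ligands and receptors 19 were tested, with 9 higher, 10 lower and 0 called. Il18, an inflammasome-processed cytokine, had the smallest p among the 19, at 13.1, 7.36 and 9.28 FPKM in the wild-type libraries, against 14.9, 10.4 and 12.4 FPKM in the Tet1-deficient ones. In the fit to all genes above 0, 14 of the 33 were higher and 19 lower, and the chemokine Cxcl16 had the smallest p (log2 difference −0.17; limma p 0.0778 before and 1.00 after adjustment). Of 31 genes of Toll-like receptor and NF-kappa B signalling 25 were tested, with 15 higher, 10 lower and 0 called. Nfkbia, the inhibitor that NF-kappa B itself induces, measured 14.6, 16.6 and 14.6 FPKM and 15.1, 20.0 and 17.2 FPKM, with overlap. In the fit to all genes above 0, 16 of the 31 were higher and 15 lower, and Tlr9, a receptor for unmethylated CpG DNA, had the smallest p. Tlr9 measured 1.12, 0.964 and 0.976 FPKM among wild-type libraries, while Tet1-deficient libraries gave 0.699, 0.566 and 0.422 FPKM, without overlap (log2 difference −0.37; limma p 0.00287 before and 0.696 after adjustment). Of 22 genes of Stat3 signalling and the acute glial response 16 were tested, with 5 higher, 11 lower and 0 called, and in the fit to all genes above 0, 7 of the 22 were higher and 15 lower. In that list the complement gene C4b measured 3.50, 3.08 and 3.87 FPKM with wild-type Tet1, and its Tet1-deficient values were 2.20, 2.87 and 2.43 FPKM, without overlap (log2 difference −0.36, unadjusted limma p 0.0174, adjusted p 1.00). Cebpd, an acute-phase transcription factor gene, lay the other way without overlap, at 2.77, 3.51 and 3.62 FPKM and 3.82, 4.68 and 3.66 FPKM (log2 difference 0.23, limma adjusted p 1.00).

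**Figure D5:**
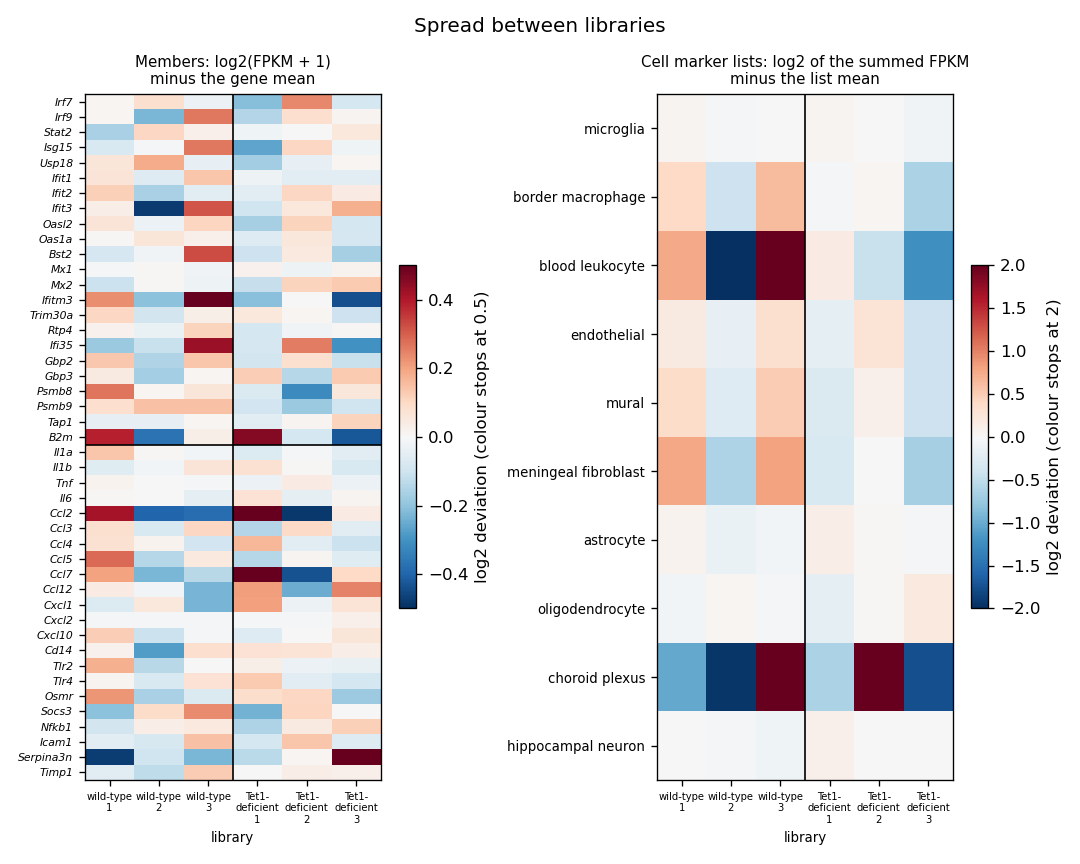
Left, log2(FPKM + 1) of each of the 45 genes in each library minus that gene's mean over the 6 libraries, with a line between the interferon set above and the cytokine set below, and right, the log2 summed FPKM of 10 cell marker lists minus the list's mean. Wild-type replicate 3 is red for many interferon genes and for the leukocyte and choroid plexus lists, and Tet1-deficient replicate 2 is also red for choroid plexus. Replicate 1 of each genotype is red for B2m, Ccl2 and Ccl7, and the microglia row is nearly even.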

How the data were processed

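Values are FPKM per gene and library from the table the authors deposited. Per the submitters' processing notes, TopHat2 2.0.9, Cufflinks 2.1.1 and mm10 were used. The sources used here do not give the annotation, strand setting or treatment of multiply mapped reads. The depth is unknown: among 362 low genes at most 5 shared a ratio between libraries, so no read counts could be recovered, and no counting interval is given.

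Groups came from the genotype labels. The model was limma 3.58.1 (R 4.3.3) on log2(FPKM + 1) (trended prior, two-sided tests, Benjamini-Hochberg adjustment, threshold 0.05) for the 12533 genes whose mean reached 1 FPKM. Values for scarcer genes came from the same model on the 19123 genes above 0. The scripts were tested on simulated data. Two-sided exact permutation tests were run for Psmb9, Serpina3n, Ifitm3 and H2-K1, and the exact permutation p was 0.2 for Ifitm3 and 0.1 for H2-K1. Values per library are given for the 12 genes of each set with the smallest p in the fit to all genes above 0, the 3 of each set with the highest mean, any whose groups do not overlap, and up to 3 genes of each pathway list with the smallest p. Tap1, Ccl7, Psmb10, Ifnar1, Mb21d1, Gfap, S100a8, S100a9, Gbp4, Gbp9, Cxcl16, Tlr9, Fcrls, Sall1 and Lcn2 were chosen after their values were seen.

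The 45 genes, the pathway lists and the marker lists were chosen with earlier results of these data known. Alternatives were another pseudocount, no filter, median-of-ratios scaling, quantile normalization, no trend, library weights, the principal component split and leaving out each library. Those that combined the removal of the filter with another change were added after seeing the data. Gene positions are from GENCODE M21 and sequences from RefSeq, both on GRCm38.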

Additional observations from a re-analysis of the deposited data

How the results depend on the processing

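In each alternative run, 0 of the 45 genes passed the limma test, with or without the level filter. The smallest adjusted limma p over the unfiltered alternatives was 0.0897 in the interferon set (Psmb9, with estimated library weights) and 0.438 in the cytokine set. Over all genes, 4 were called, against 59 with library weights, 8 with the principal component split as a term, 13 in the 4 libraries on the larger side of the split, and 0 to 6 on leaving out 1 library. The cytokine set's median log2 difference of 0.18 over 4 tested genes was 0.28 with a pseudocount of 0.1 FPKM, 0.27 with library weights, 0.0064 without the filter, which adds the other 18 genes, and 0.0639 to 0.33 on leaving out 1 library. The interferon set's median of −0.03 lay between −0.16 (without wild-type replicate 2) and 0.04 (without wild-type replicate 3). Leaving out a library also changed which genes passed the filter. Ifi35 fell under it without wild-type replicate 3, and Ccl2 without replicate 1 of either genotype. Apart from the added and dropped genes, the cause of these shifts was not tested. Without the filter, 5 to 10 of 23 interferon and 11 to 17 of 22 cytokine set estimates were higher in Tet1-deficient hippocampus. Psmb9 kept an unadjusted p under 0.05 in all 12 unfiltered alternatives, which were chosen after seeing the data. No paired analysis was possible because the replicate numbers are names in accession order and the titles share fewer than 2 numbers between genotypes. The unknown depth limits what can be read from genes under 0.1 FPKM.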

Other observations

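Of 19 interferon ligand symbols looked up after the data were seen, 17 were listed at 0 in every library. Ifna2 (0.0790 FPKM) and Ifng (0.0323 FPKM) were above 0 in Tet1-deficient replicate 1 and listed at 0 in the other 5 libraries. Of 20 microglia markers, all tested, 13 were lower and 7 higher in Tet1-deficient hippocampus, and 0 passed. 2 of the 20 had values that did not overlap, Fcrls and Sall1, both lower, against 4.13% of all 12533 genes tested. Fcrls, a receptor-like gene of microglia, measured 7.12, 5.47 and 6.73 FPKM among wild-type libraries, while Tet1-deficient libraries gave 3.21, 4.33 and 2.84 FPKM, without overlap (log2 difference −0.74, unadjusted limma p 0.00188, adjusted p 0.841). Sall1, a transcription factor gene of microglia, measured 4.52, 4.34 and 5.12 FPKM in the wild-type libraries, against 3.79, 4.06 and 4.24 FPKM in the Tet1-deficient ones (log2 difference −0.17, limma adjusted p 1.00). Cx3cr1 and Aif1, 2 other microglia genes, overlapped between genotypes, with wild-type means of 12.9 ± 0.972 and 3.37 ± 0.130 FPKM and Tet1-deficient means of 12.5 ± 0.638 and 3.30 ± 0.374 FPKM (SD, n = 3). Lcn2, an acute-phase gene of reactive astrocytes and neutrophils, measured 0.345, 0.0934 and 1.59 FPKM in the wild-type libraries, against 0.217, 0.718 and 0.116 FPKM in the Tet1-deficient ones.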
